A study of Mus musculus with 7 samples.

Results

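The transcripts described here are those of 9 genes linked to restraint and exhaustion of T cells, namely Pdcd1, Lag3, Havcr2, Tigit, Ctla4, Cd160, Cd244a, Entpd1 and Tox. The genes were chosen as a list by name, and all 9 were found among the 55491 gene rows of the deposited matrix. They were followed in the 11 cell annotation values that the authors gave to T and NK cells, which hold 14601 of 28644 cells. Mice bearing intracranial CT-2A glioma, a mouse glioma line, were compared by genotype in droplet 5′ single-cell RNA-seq, with 1 library per mouse. The 4 KO mice carried Sall1CreERT2, a tamoxifen-inducible Cre under a microglial gene, with both Siglece alleles floxed (Siglecefl/fl), from lines on B6;129 and B6.129P2 backgrounds. The 3 WT mice carried the floxed Siglece alleles without the Cre. All 7 mice received tamoxifen, at 2.5 mg per injection, every day between days 7 and 21 of tumour growth and on alternate days after that, so the drug is common to both groups. They were 8 to 12 weeks old when 50000 tumour cells were implanted. Live cells positive for CD45, CD11b or both were sorted from thawed suspensions of the hemisphere with the tumour. The deletion is meant for microglia, so T and NK cells differ between the groups in the mouse they came from, not in an allele recombined in them by design.

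Inhibitory receptors are surface proteins that T and NK cells display after activation and that lower signalling when they meet a ligand on another cell. PD-1 (Pdcd1) recruits phosphatases to the antigen receptor and its costimulators, CTLA-4 (Ctla4) takes the ligands CD80 and CD86 from CD28, and TIGIT (Tigit) takes the poliovirus receptor from CD226. Under lasting antigen, as in tumours, T cells can keep several of these receptors at once in a state called exhaustion, whose maintenance needs the nuclear factor TOX (Tox).

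Before the members, a few facts on the libraries are needed. T cells numbered 613, 2663, 3792 and 3549 in KO replicates 1 to 4, and 311, 1504 and 1260 in WT replicates 1 to 3, which were 43.5 to 79.9% of the KO and 10.6 to 33.8% of the WT cells. WT replicate 1 held under 20 cells of 6 subtypes, so those subtypes are compared with 2 WT mice. Siglece in annotated microglia came to 10.7, 19.6 and 0 CPM (UMIs per 1000000 UMIs) in KO replicates 1, 2 and 4 and to 36.1, 45.9 and 18.6 in the WT replicates (KO replicate 3 had under 20 microglia). Of the 49 Siglece UMIs in microglia 3 came from KO libraries, which held 113 of the 414 microglia, and the ranges overlap. Xist and Y-linked transcripts marked 3 mice as female, KO replicates 1 and 2 with WT replicate 3, and the remaining 4 as male. 460 cell barcodes occurred in more than 1 library, on 3.23% of the cells, with at most 56 shared by any pair of libraries.

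The subtype names were the authors' and were checked against markers other than the members. Foxp3 in annotated Tregs stood at 532 CPM, Ncr1 in NK cells at 381, Trdc in gamma-delta cells at 277 and Cd8a in exhausted CD8 cells at 1019.7. Among the CD4 subtypes Cd8a was at 177 in Tfh and 95.4 in naive/early cells, against 66.1 or less in the others. In Tfh and naive/early CD4 cells Cd8b1 was at 144 and 140, and Cd4 at 587 and 255. Tcf7, a nuclear factor that marks naive and precursor-exhausted cells, was at 14.2 in the cells named precursor-exhausted against 145 in naive/early CD8 cells, and Slamf6 was at 7.26 in the former. Of the Tfh markers, Il21 (58.6) and Bcl6 (28.4) were highest in the cells named Tfh. Both were next highest in the cells named Th1, at 32.4 and 25.6. Izumo1r was highest in Tregs, at 474, and was lower in the cells named Tfh than in those named Th1. The defining receptor Cxcr5 was at 1.67 in the cells named Tfh. The Th1 cytokine Ifng was at 1721 there, above the 989 of the cells named Th1. The Th1 markers Tbx21 (101) and Cxcr3 (57.6) were also lower in the cells named Th1 than in those named Tfh (141 and 63.9). Ccr7, listed as a naive marker, was highest in the cells named Th1, at 630. In gamma-delta cells Trdv4, a delta chain segment of the T cell receptor, was at 1755 CPM in KO replicate 1, 2106 and 1293 in WT replicates 1 and 2 and 0 in WT replicate 3. Trdc was at 271, 526, 309.8 and 0 in the same libraries. The cells of WT replicate 3 held no UMI of either gene, so the gamma-delta levels are also given without that mouse. The names precursor-exhausted, Tfh and Th1 are used below only as the authors' labels.

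Levels are CPM, UMIs of the gene per 1000000 UMIs of the summed cells of a subtype in a library, given as the mean ± SD over libraries with at least 20 cells. They describe the annotation, which was made from the same cells, and carry no test. The 9 genes fell into visibly different orders over the subtypes. Neighbours in an order are said to differ when their means lie further apart than the larger of their SDs.

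Pdcd1 was highest in exhausted CD8 cells, at 1039 ± 158 (SD, n = 6). The 6 libraries there ran from 787 through a median of 1055 to 1264. Tfh (884), Th1 (869), gamma-delta (715) and precursor-exhausted cells (646) followed, none of them apart from its neighbour. The proliferating CD8 (531) and CD4/Treg cells (405) and Tregs (344 ± 120.0) came next in the order of Pdcd1. By the rule above Tregs lay just apart from naive/early CD8 (220.1) and CD4 cells (217), and NK cells lay apart at 50.2 ± 46.0. The naive/early means include WT replicate 1, which had no Treg value. In the 6 libraries with a Treg value, naive/early CD8 and CD4 cells averaged 235 and 233, so the gap to Tregs was then within the spread. Tregs held more Pdcd1 than naive/early CD4 cells in 4 of these 6 libraries (median ratio 1.55).

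Ctla4 and Tigit shared a peak in Tregs. Ctla4 stood at 1538 ± 168 there (n = 6), beyond the spread of proliferating CD4/Treg cells (975), Tfh (738) and Th1 cells (704). Exhausted CD8 cells held 562 ± 83.5 of Ctla4, and a gap beyond the spread led to gamma-delta (341), precursor-exhausted (290.1), proliferating CD8 (268) and naive/early CD4 cells (209.9). Naive/early CD8 cells (122) and then NK cells (77.7) ended its order, each apart from the one above. Tigit stood at 993 ± 165 in Tregs, apart from Th1 (634), Tfh (607), exhausted CD8 (522), precursor-exhausted (438) and proliferating CD4/Treg cells (427). A lower group of Tigit levels held proliferating CD8 (279), NK (255) and the naive/early CD8 (244) and CD4 cells (211), with gamma-delta cells apart at 35.8.

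Lag3, whose product resembles CD4 and binds MHC class II, was about level over 5 subtypes. Its means were 446 in Th1, 427 in Tfh, 407 in exhausted CD8, 374 in precursor-exhausted cells and 363 in Tregs. Proliferating CD8 (218) and CD4/Treg cells (193) formed a middle group, and naive/early CD8 (76.5), NK (49.5) and naive/early CD4 cells (35.0) a lower one, with gamma-delta cells last at 1.57 ± 3.15. Havcr2, which encodes TIM-3, had its highest levels in CD4 cells, with 244 ± 81.1 in Tfh and a mean of 208 in Th1. Exhausted CD8 cells (131), Tregs (129.7) and precursor-exhausted cells (121) lay below that gap in Havcr2. They were followed by the proliferating CD4/Treg (83.9) and CD8 cells (73.2). Naive/early CD8 (31.7), gamma-delta (29.6), naive/early CD4 (25.7) and NK cells (14.1) were the low end of its order.

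Cd160 and Cd244a, receptors shared by NK and CD8 cells, were ordered by lineage. Cd160, a lipid-anchored receptor for the herpesvirus entry mediator, was at 112 ± 46.9 in NK cells (n = 7). Naive/early (87.1), precursor-exhausted (78.9), proliferating (68.5) and exhausted CD8 cells (65.3) followed, with no step between neighbours beyond the spread. Over the whole of that run the gap was larger, and exhausted CD8 cells held less Cd160 than NK cells in 6 of 6 libraries (median ratio 0.567). The CD4 subtypes lay apart from them in Cd160, from 27.0 in Tfh over 19.5 in Th1, 14.7 in proliferating and 10.8 in naive/early CD4 cells down to 1.20 in Tregs. Gamma-delta cells held no Cd160 UMI in the 4 libraries with enough cells, 0 of 186 cells, which allows a share of cells with a UMI of up to 1.61%. Cd244a encodes 2B4, the receptor for CD48, and was at 83.9 ± 11.2 in NK cells, apart from precursor-exhausted (38.5), exhausted (37.0) and proliferating CD8 cells (31.7). Naive/early CD8 cells (18.8) lay between those and the CD4 and gamma-delta cells, all of which held at most 4.04 of Cd244a.

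Entpd1 and Tox, the members that are not receptors, differed in the spread between libraries beside the steps between subtypes. Entpd1 encodes CD39, an enzyme that cleaves extracellular ATP, and stood at 117 ± 13.5 in Tregs, beyond the spread of the next in its order, precursor-exhausted cells, at 88.6. It then went through exhausted CD8 (83.9), Tfh (74.8), Th1 (69.1), proliferating CD4/Treg (64.1) and proliferating CD8 cells (56.2) to naive/early CD8 (41.3), NK (33.5), naive/early CD4 (30.2) and gamma-delta cells (9.63). Tox ran from 167 ± 92.6 in precursor-exhausted (n = 7) and 156 ± 95.3 in exhausted CD8 cells (n = 6) over Th1 (139), Tfh (133) and proliferating CD8 cells (127). Tregs (94.8), proliferating CD4/Treg (83.8), gamma-delta (67.8), naive/early CD8 (57.4), naive/early CD4 (52.9) and NK cells (24.9) followed. No neighbours in the order of Tox differed beyond their spread, and the SDs within a subtype were large beside the steps between them. These SDs are between mice, and the same mice supply the subtypes. Within a library, precursor-exhausted cells held more than naive/early CD8 cells in 7 of 7 libraries for both Tox (median ratio 3.26) and Entpd1 (2.34).

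**Figure D1:**
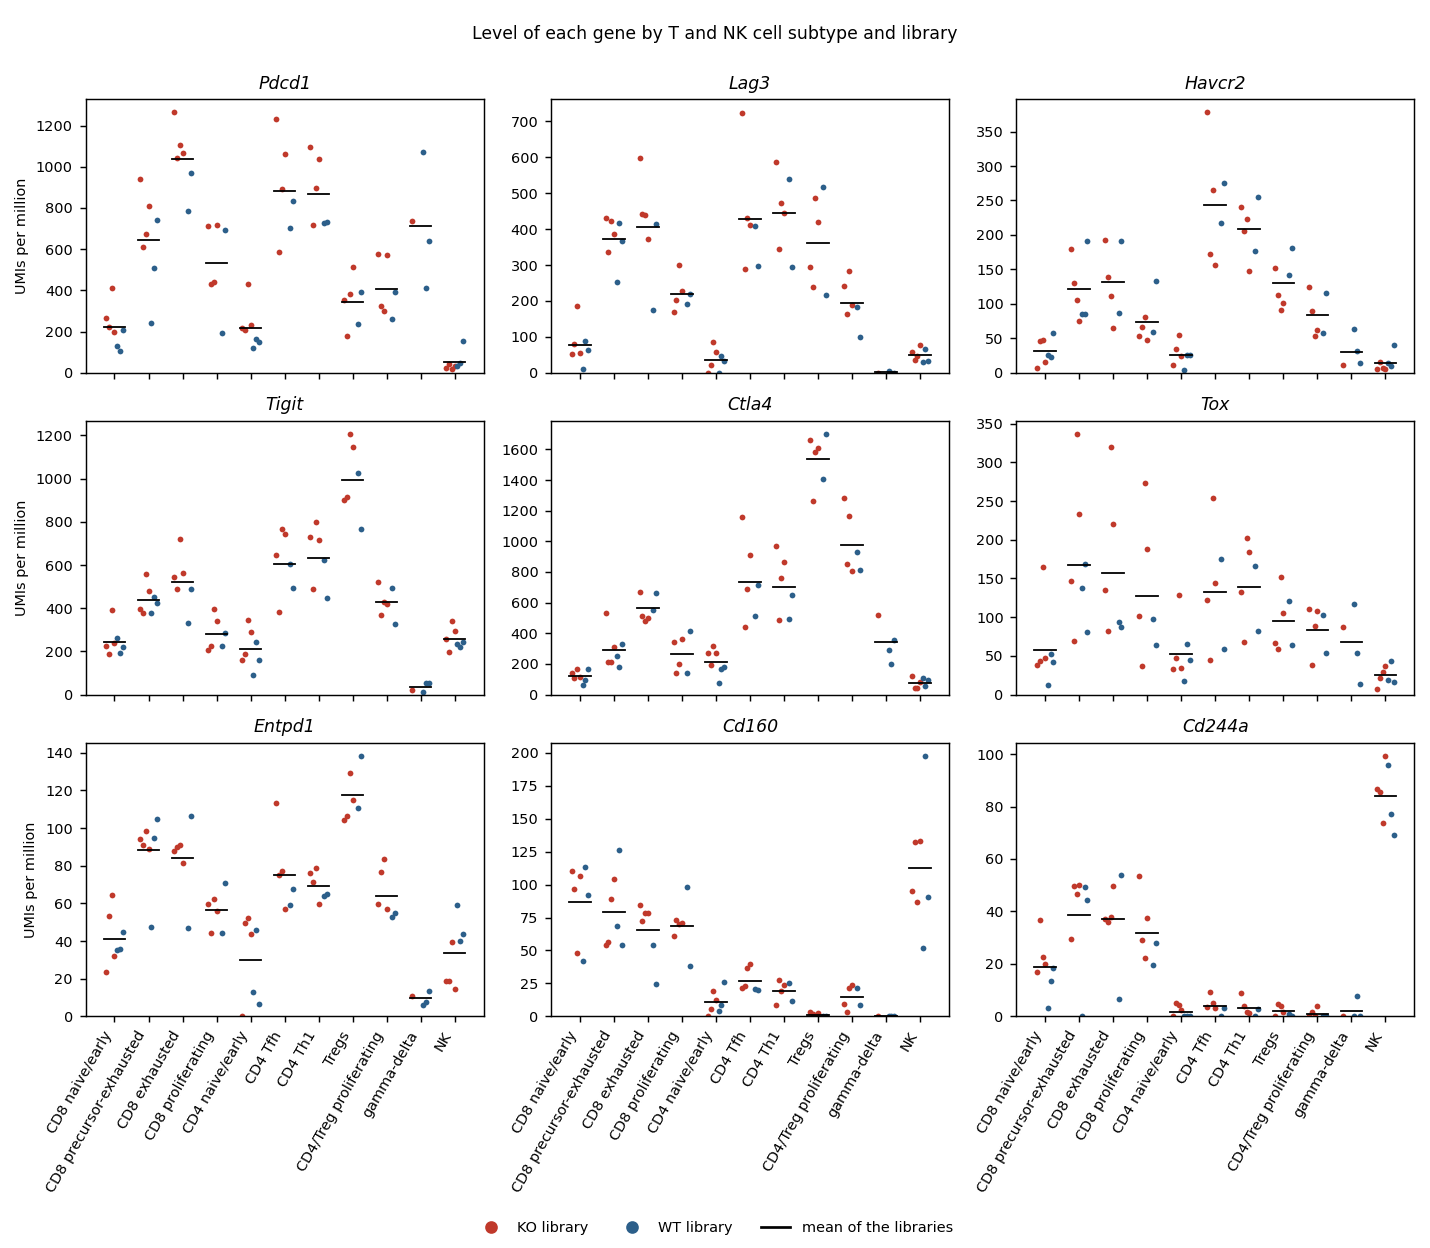
Level of each of the 9 genes (CPM, y axis, own scale per panel) in the 11 T and NK subtypes (x axis), with 1 point per library and the mean over libraries. Pdcd1 peaks in exhausted CD8 cells at 1039, Ctla4 and Tigit peak in Tregs at 1538 and 993, and Cd160 and Cd244a have their highest means in NK cells at 112 and 83.9.

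Within a mouse, the step from naive/early to precursor-exhausted CD8 cells came with higher levels of 7 of the 9 genes in 7 of 7 libraries. The median ratio of the levels was 5.78 for Lag3, 3.50 for Pdcd1, 3.29 for Havcr2, 3.26 for Tox, 2.34 for Entpd1, 1.97 for Ctla4 and 1.93 for Tigit. Cd244a was higher in 6 of 7 and Cd160 in 3 of 7 libraries. From precursor-exhausted to exhausted CD8 cells only 2 genes were higher in every library, Ctla4 in 6 of 6 (median ratio 2.12) and Pdcd1 in 6 of 6 (1.45). Tigit and Havcr2 were higher in 5 of 6 with median ratios of 1.23 and 1.04, Lag3 in 4 of 6, Tox, Cd160 and Cd244a in 2 of 6 and Entpd1 in 1 of 6.

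Among CD4 cells, Tfh were above naive/early cells in 6 of 6 libraries for Pdcd1 (median ratio 4.45), Havcr2 (7.35), Ctla4 (3.23) and Tigit (2.53), and in 5 of 6 for Tox. Lag3 and Entpd1 were also higher in Tfh in 6 of 6, with means of 427 against 40.8 for Lag3 and 74.8 against 33.0 for Entpd1. Tregs were above Tfh in 6 of 6 libraries for Ctla4 (2.34) and Tigit (1.56) and in 5 of 6 for Entpd1 (1.77). Pdcd1 and Havcr2 went the other way, with Tregs below Tfh in all 6 libraries at median ratios of 0.383 and 0.648. Across lineages, Havcr2 was higher in Tfh than in exhausted CD8 cells in 6 of 6 libraries (2.17), while Pdcd1 was lower in all 6 (0.876). Gamma-delta cells had more Pdcd1 and Ctla4 than naive/early CD8 cells in 4 of 4 libraries, at median ratios of 3.50 and 2.92, and less Tigit (0.173), Entpd1 (0.261), Lag3 and Cd160 in all 4. Without WT replicate 3, a choice made after seeing the data, each of these directions held in 3 of 3 libraries, at ratios of 3.88 for Pdcd1, 3.71 for Ctla4, 0.0961 for Tigit and 0.218 for Entpd1. The mean gamma-delta levels were then 739 for Pdcd1, 337 for Ctla4, 85.8 for Tox, 34.9 for Havcr2, 29.5 for Tigit, 8.29 for Entpd1, 2.58 for Cd244a and 2.10 for Lag3.

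The share of cells with a UMI was set on 1 depth by thinning each cell to 3300 UMIs, which kept 8106 KO and 2222 WT T cells and left out the shallower ones. Exhausted CD8 cells had Pdcd1 in 83.3 ± 11.1% of cells (SD, n = 6), against 74.8% of precursor-exhausted and 31.4% of naive/early cells. Before thinning, the share in exhausted cells was 86.7%. Pdcd1 was also found in 82.8% of Th1 and 82.3% of Tfh cells. Most Tregs held Tigit (86.6 ± 2.91%, 88.1% unthinned) and Ctla4 (85.5 ± 1.50%, 85.4% unthinned). Other peaks were lower, at 63.9% for Lag3 in Th1, 42.3% for Havcr2 in Tfh, 34.4% for Tox in precursor-exhausted cells and 31.1% for Entpd1 in Tregs. In NK cells, Cd160 was found in 27.8% and Cd244a in 23.3%. These shares and their order depend on the depth. At 6600 UMIs, which fewer cells reached, Havcr2 was found in 65.6% of Tfh, Tox in 53.0% of precursor-exhausted, and Cd160 and Cd244a in 44.7 and 41.5% of NK cells. At that depth exhausted CD8 cells, with values in 3 libraries, had the highest mean share of Lag3 (88.9%, with 80.0% in Th1) and of Tox (65.0%), and no library kept enough Tregs for a value.

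Tumour or stromal cells, which should lack these transcripts, held them in 0.108 to 1.29% of cells after the same thinning, from a median depth of 20569 UMIs per cell against 4748 in T cells. Thinning therefore removed a larger part of their UMIs, and this background may be too low for T cells. The background was not even between the groups. For Tigit it was 1.71 and 2.88% in KO replicates 2 and 4 and 0.0821 to 0.184% in the WT libraries, and for Pdcd1 0.794 and 1.91% against 0 to 0.45%. The 5 T cell markers summed to 36.4 and 79.1 CPM in those KO and to 2.87 to 9.41 in the WT tumour or stromal cells. Against the mean background, Cd160 in Tregs (0.159%, background 0.108%) and Cd244a in the CD4 subtypes (0.261 to 1.18%, background 0.586%) were at or near it. In gamma-delta cells, Lag3 (1.15%) and Entpd1 (1.26%) were likewise near their backgrounds of 1.11 and 1.03%, in the 1 library that kept 20 cells. Pdcd1 was found in 91.6% of the gamma-delta cells of that library.

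**Figure D2:**
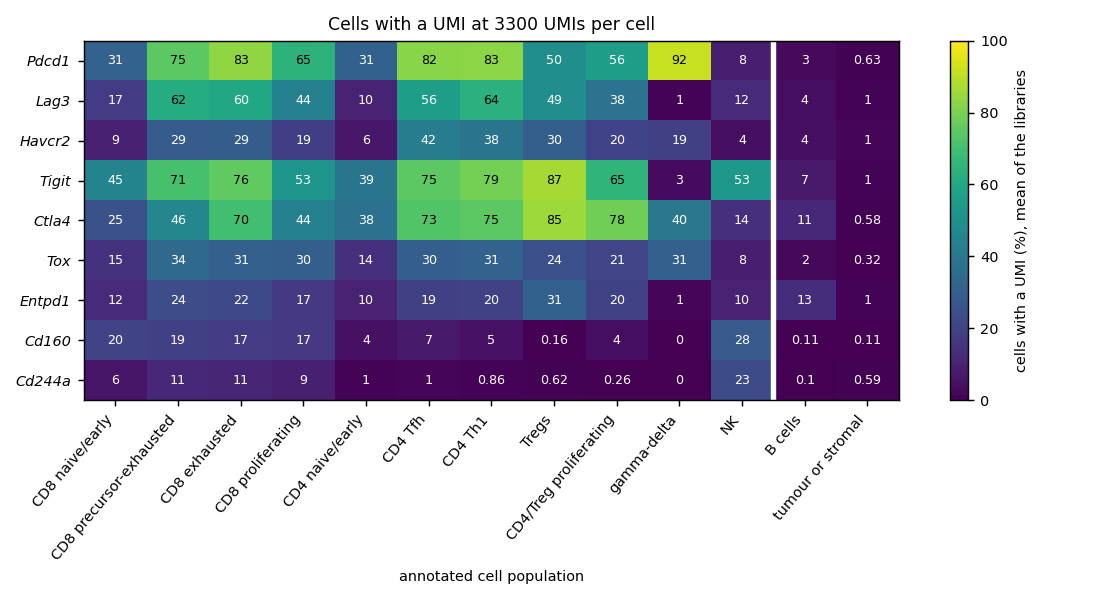
Share of cells with at least 1 UMI of each gene (percent, mean over libraries, after thinning every cell to 3300 UMIs) in the T and NK subtypes, in B cells for comparison and, as background, in tumour or stromal cells. Pdcd1 reaches 83.3% in exhausted CD8 cells and Tigit 86.6% in Tregs, while the B cell column runs from 0.105 (Cd244a) to 13.1% (Entpd1) and the tumour or stromal column from 0.108 to 1.29%; the gamma-delta column rests on 1 library.

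Co-detection was counted for Pdcd1, Lag3, Havcr2, Tigit and Ctla4 in the same cells at 3300 UMIs. At least 3 of these 5 transcripts were found in 79.6% of Th1, 76.5% of Tfh and 75.9% of exhausted CD8 cells. In exhausted CD8 cells the libraries gave percentages of 75.6, 82.0, 85.9 and 77.3 in KO replicates 1 to 4, and 53.6 and 80.8 in WT replicates 2 and 3. WT replicate 2 was the low one, and the other 5 libraries lay close together. The share was 68.5% in Tregs, 63.3% in precursor-exhausted, 53.4% in proliferating CD4/Treg and 46.9% in proliferating CD8 cells. It was 17.7% in naive/early CD8, 14.5% in naive/early CD4 and 4.12% in NK cells. All 5 together were found in 16.3% of Th1, 15.2% of Tfh and 12.1% of exhausted CD8 cells.

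Within the T cell subtypes, but not in NK cells, the receptors tended to occur in the same cells. Of the 10 pairs of these 5 genes, each counted once, the gene was more frequent in cells with its partner than in cells without it in 10 pairs in naive/early, exhausted and proliferating CD8, Tfh and Th1 cells. The count was 9 in precursor-exhausted, 8 in proliferating CD4/Treg and 7 in Treg cells, and 5 in NK cells. In naive/early CD4 cells it was 9 of the 9 pairs with enough cells. For example, Lag3 was found in 69.2% of the exhausted CD8 cells with Pdcd1 and in 51.0% of those without. These cells are pooled over libraries and share them, so the counts are a description. Pairs of other genes were not counted for comparison.

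**Figure D3:**
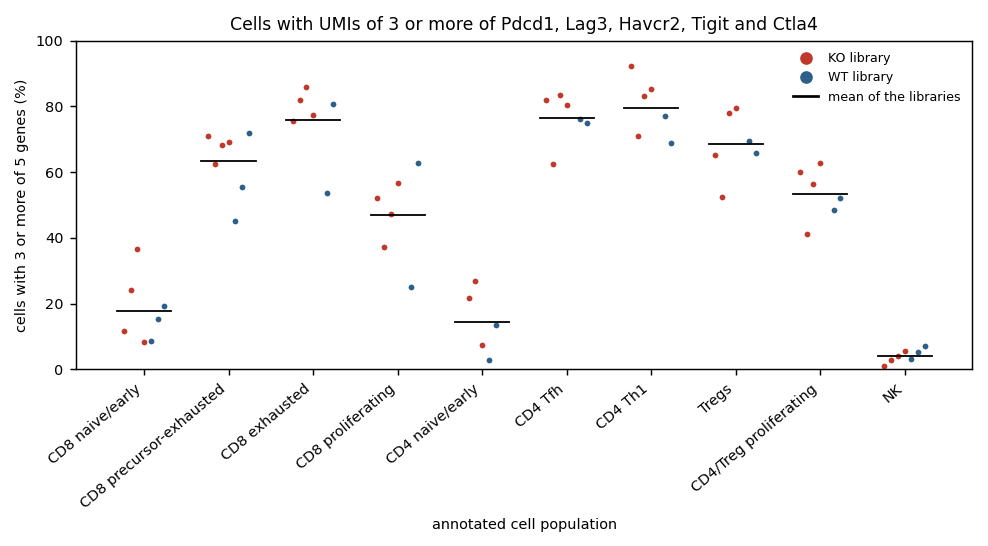
Share of cells (percent) in which at least 3 of the 5 transcripts Pdcd1, Lag3, Havcr2, Tigit and Ctla4 were found at 3300 UMIs per cell, by subtype, with 1 point per library (KO red, WT blue) and a line at the mean. Th1, Tfh and exhausted CD8 cells have means of 79.6, 76.5 and 75.9%, NK cells 4.12%.

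Some members followed each other closely from subtype to subtype. The correlation of log2(mean level + 1) over the 11 subtypes, which share their libraries, was 0.97 for Entpd1 with both Lag3 and Tigit, 0.95 for Lag3 with Tigit, 0.91 for Pdcd1 with Tox and 0.80 for Cd160 with Cd244a. Pdcd1 with Tigit gave 0.14, and Ctla4 with Cd244a gave −0.63. Gamma-delta cells were the lowest of the 11 for Entpd1 (9.63), Lag3 (1.57) and Tigit (35.8) but held 715 of Pdcd1. They can weigh heavily on these values, and no correlation was taken without them. Among 6136 genes with a mean of at least 20 CPM, the 3 closest to Pdcd1 were Cd3g (0.95), Fam20a (0.93) and Cd3e (0.91). For Lag3 they were Rac2, Entpd1 and Ifi27, and for Havcr2 Rbpj, Dusp14 and Ehd1. Tigit had Ufl1, I730030J21Rik and Entpd1, Entpd1 had Lag3, Gm49396 and Tigit, and Ctla4 had Hccs, Gm5537 and Sv2c. Tox had Lypla1, Sugt1 and Stap1, Cd160 had Ifitm10, Klre1 and Dnajc15, and Cd244a had Zyx, Ugcg and Rmnd5b. These genes were the highest of all those compared over 11 points, and no test was made.

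In the mouse genome (GRCm38, GENCODE M21 annotation) the 9 genes lie mostly apart. Ctla4 (chr1:60887000-60915832, plus strand) sits between its relatives Cd28 and Icos, and Pdcd1 (chr1:94038305-94052553, minus) and Cd244a (chr1:171559193-171609746, plus, next to Slamf7) are on the same chromosome. Lag3 (chr6:124904361-124911705, minus) lies 16139 bp from Cd4, to which its protein is related. The others are Havcr2 (chr11:46454935-46481255, plus), Tigit (chr16:43648867-43664146, minus), Tox (chr4:6686353-6991557, minus), Entpd1 (chr19:40612366-40741602, plus) and Cd160 (chr3:96798763-96829351, minus). Cd160 overlaps Pdzk1, and Cd244a overlaps Ly9, on the opposite strand, and the strand setting of the counting is not given in the sources used here, so reads of each pair may not be fully separated. Tox overlaps the antisense gene Gm11802, to which the same applies. On their own strand, Ctla4 overlaps the pseudogene Rpl18-ps1, and Entpd1 overlaps the pseudogenes Gm16027 and Gm8783 and the intronic transcript AC166063.1, which no strand setting separates. Ly9 itself is expressed by lymphocytes.

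Promoter windows from 250 bases before to 50 after an annotated start were taken from RefSeq (GRCm38.p6), which matched 7 of the 9 members, with 9 windows. The windows of Tigit (chr16:43664135-43664434, minus strand) and of the second start of Entpd1 (chr19:40659520-40659819, plus strand) are shown because the levels of both genes peaked in Tregs and followed each other with a correlation of 0.97. Capitals mark the NFAT core GGAAA (or TTTCC on the other strand) and the RUNX core TGTGGT (or ACCACA), factors that act downstream of the antigen receptor and in T cell identity.
Tigit: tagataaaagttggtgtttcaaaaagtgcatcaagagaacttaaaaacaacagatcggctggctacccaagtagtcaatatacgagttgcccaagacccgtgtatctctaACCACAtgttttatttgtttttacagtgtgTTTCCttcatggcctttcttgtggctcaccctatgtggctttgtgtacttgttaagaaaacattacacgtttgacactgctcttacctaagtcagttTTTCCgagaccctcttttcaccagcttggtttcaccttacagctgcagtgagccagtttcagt
Entpd1: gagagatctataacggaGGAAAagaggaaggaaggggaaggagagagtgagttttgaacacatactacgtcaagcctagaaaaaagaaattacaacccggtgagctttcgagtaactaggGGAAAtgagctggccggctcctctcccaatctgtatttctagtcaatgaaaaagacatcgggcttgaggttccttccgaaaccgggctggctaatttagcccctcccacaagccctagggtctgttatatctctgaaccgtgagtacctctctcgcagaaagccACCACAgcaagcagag
Both windows hold 2 matches to the NFAT core and 1 to the RUNX core, and these do not overlap. The other annotated start of Entpd1 (chr19:40612116-40612415, plus strand) holds 0 matches to either, so the count for Entpd1 depends on the start, and the window shown was picked with its matches known. The window of Ctla4, which also peaked in Tregs, holds 1 NFAT and 0 RUNX matches. Pdcd1 and Cd244a hold 2 and 0, Havcr2 holds 0 and 1, and the windows of Cd160 hold 0 and 1 or 1 and 1. Of 32851 promoter windows of the same length, 61.3% hold the NFAT letters and 16.8% the RUNX letters. A match of letters is a description and is no evidence of binding.

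The comparison of genotypes asked whether deletion of Siglece, an inhibitory sialic acid receptor, aimed at microglia came with other levels of these genes in T and NK cells. Within subtypes, no member passed an adjusted p of 0.05 in any of the 82 member-by-subtype tests (edgeR's quasi-likelihood test, Benjamini-Hochberg over all genes of the subtype), and DESeq2 also called 0. With no low-count filter 4 were called, and with a replicate block, a term for the replicate number, 1 was called. In the main fits over all genes and subtypes, 15 of 80509 tests passed, or 0.0186%. 10 of the 82 had an unadjusted p under 0.05, against 4.24% of all tests. The log2 difference of KO from WT was positive in 59 of 82, against 51% of all tests. In 6 cases all KO libraries lay above all WT libraries (6.02% of all tests) and in 1 case below (4.95%). The tests share mice and the subtypes share genes, so these counts are no test of the list. Leaving out 1 mouse moved the positive count to between 54 of 81 without KO replicate 3 and 64 of 83 without WT replicate 3, with 55 of 83 without WT replicate 1. With the replicate block it was lower, at 49 of 82. Without KO replicate 2, 19 of 81 had an unadjusted p under 0.05. The share of all genes in that setting is not given, so this count cannot be read as particular to the members.

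By gene, the direction was most even for Tigit, with positive log2 differences in 10 of 10 subtypes, from 0.071 to 0.59. Pdcd1 and Lag3 were positive in 9 of 10, Tox in 8 of 10, Ctla4 and Entpd1 in 6 of 10, Cd160 in 6 of 8 and Cd244a in 4 of 5. Havcr2 was the exception, positive in 1 of 9, with a range from -0.86 to 0.85. Gamma-delta cells reached 20 cells in only 1 KO library and were not tested. The lowest adjusted p among the 82 was 0.491 by edgeR's test.

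The member-by-subtype pairs with an unadjusted p under 0.05 together with groups that did not overlap are given first. The share of all genes that met both rules was not counted, so the number of such pairs is not read as a result. Cd160 in exhausted CD8 cells was 84.5, 72.1, 78.1 and 78.8 in KO replicates 1 to 4, and 53.8 and 24.6 in WT replicates 2 and 3, in CPM. All 4 KO libraries lay close together and above both WT libraries. The log2 difference was 1.25 (SE 0.31), with an adjusted p of 0.592 by edgeR's quasi-likelihood test, and 10.9% of the genes tested in this subtype had KO libraries all above WT. The WT values rest on 25 UMIs, and without WT replicate 3 the log2 difference was 0.51. The thinned share of cells with Cd160 averaged 19.8% in KO and 12.4% in WT. In Tfh cells Cd160 also did not overlap, with a log2 difference of 0.62 (SE 0.33), where 6.63% of genes were separated upwards. The cells named Tfh also held Cd8a at 177 CPM, and the part of CD8 cells in this difference was not tested.

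Naive/early CD4 cells held another pair. Pdcd1 there was 216, 207, 432 and 229.6 in KO replicates 1 to 4, and 122, 164 and 148 in WT replicates 1 to 3. KO replicate 3 stood out above its group. The log2 difference was 0.94 (SE 0.24), with an adjusted p of 0.491, and 0.62 without KO replicate 3 (edgeR). Ctla4 was 271, 193, 314 and 271 in KO replicates 1 to 4, and 73.8, 166 and 180.5 in WT replicates 1 to 3. Every KO value was above the highest WT value, by little between KO replicate 2 and WT replicate 3. The log2 difference of Ctla4 was 0.92 (SE 0.25), with an adjusted p of 0.531 (edgeR), and 2.59% of genes in this subtype were separated in this direction. With no filter on low counts both passed the threshold, at adjusted p = 0.0133 for Pdcd1 and 0.0241 for Ctla4 in edgeR's test, while the other alternatives gave 0.218 to 0.99998 and 0.416 to 0.99998. The subtype was small, with 786 cells and 126 and 121 WT UMIs of these genes. It also held Cd8b1 at 140 CPM beside Cd4 at 255, and the part of CD8 cells in these differences was not tested.

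In NK cells Entpd1 went the other way, at 18.8, 18.7, 39.3 and 14.7 in KO replicates 1 to 4, and 59.0, 40.2 and 43.7 in WT replicates 1 to 3. All KO values were below all WT values, with KO replicate 3 just under WT replicate 2. The log2 difference was -1.16 (SE 0.33) and the adjusted p 0.9998 by edgeR's test, and 2.97% of genes in NK cells were separated downwards. Entpd1 is also high in microglia (221 CPM) and macrophages. The 8 myeloid markers summed in the NK cells came to 2259.6 to 3034 in KO and 2567 to 3319.7 in WT libraries. Fcer1g alone was 1996 of their mean of 2722, against 419 or less in the T cell subtypes, so the sum there is mostly Fcer1g. With cells holding UMIs of several myeloid genes left out, the log2 difference of Entpd1 was -1.29. The part of microglial RNA in this difference was not tested. Pdcd1 in NK cells was 24.2, 43.2, 19.6 and 32.2 in KO replicates 1 to 4, and 33.2, 46.9 and 152 in WT replicates 1 to 3. WT replicate 3 stood far above the other 6 libraries, and WT replicate 1 lay inside the KO range. The log2 difference was -1.52 (SE 0.50), and -0.36 without WT replicate 3 (edgeR).

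**Figure D4:**
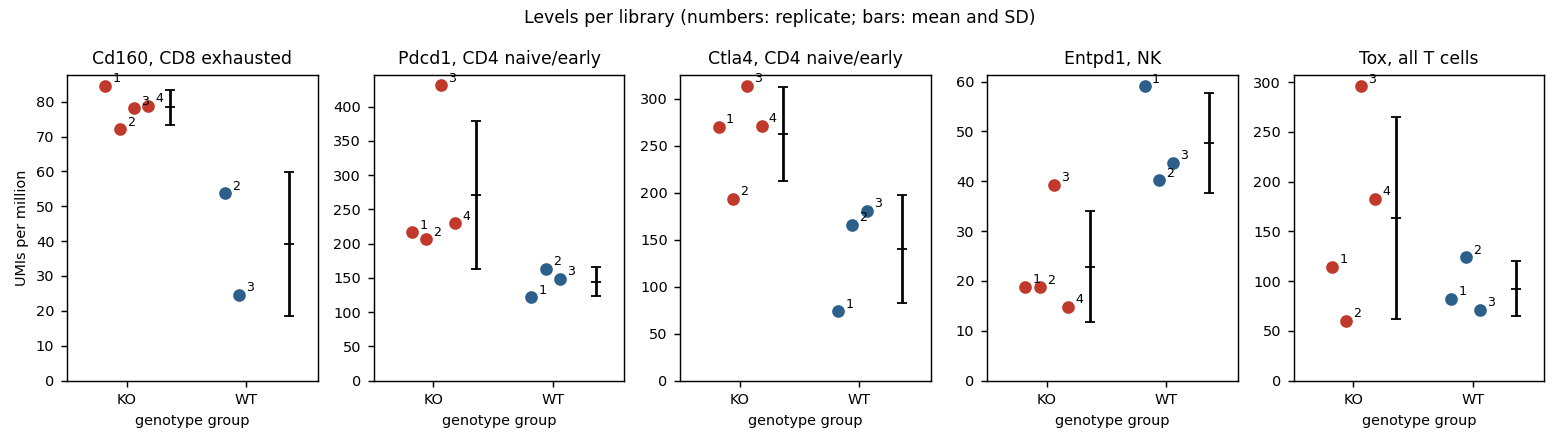
Level (CPM, y axis) in each library by genotype for Cd160 in exhausted CD8 cells, Pdcd1 and Ctla4 in naive/early CD4 cells, Entpd1 in NK cells and Tox in all T cells. The first 4 do not overlap between KO and WT, for example 72.1 to 84.5 against 24.6 and 53.8 for Cd160, and Tox overlaps.

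The remaining pairs under an unadjusted p of 0.05 overlapped between the groups. They were Pdcd1 (log2 difference 0.94) and Cd244a (0.96) in naive/early CD8 cells, Havcr2 in proliferating CD8 cells (-0.86) and in Tregs (-0.50), and Lag3 in proliferating CD4/Treg cells (0.60). Pdcd1 in naive/early CD8 cells was called with no low-count filter and with the replicate block, but not in the main fit. Without WT replicate 3, Havcr2 in proliferating CD8 cells was 0.056 and Lag3 in proliferating CD4/Treg cells 0.22, and without WT replicate 2 the latter was 1.11. Pdcd1 in exhausted CD8 cells did not overlap, at 1264, 1044, 1104 and 1067 in KO replicates 1 to 4, and 787 and 969 in WT replicates 2 and 3. Its log2 difference was small at 0.30 (SE 0.16). Entpd1 in proliferating CD4/Treg cells likewise did not overlap, at 0.33 (SE 0.23), where 5.85% of genes were separated upwards.

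**Figure D5:**
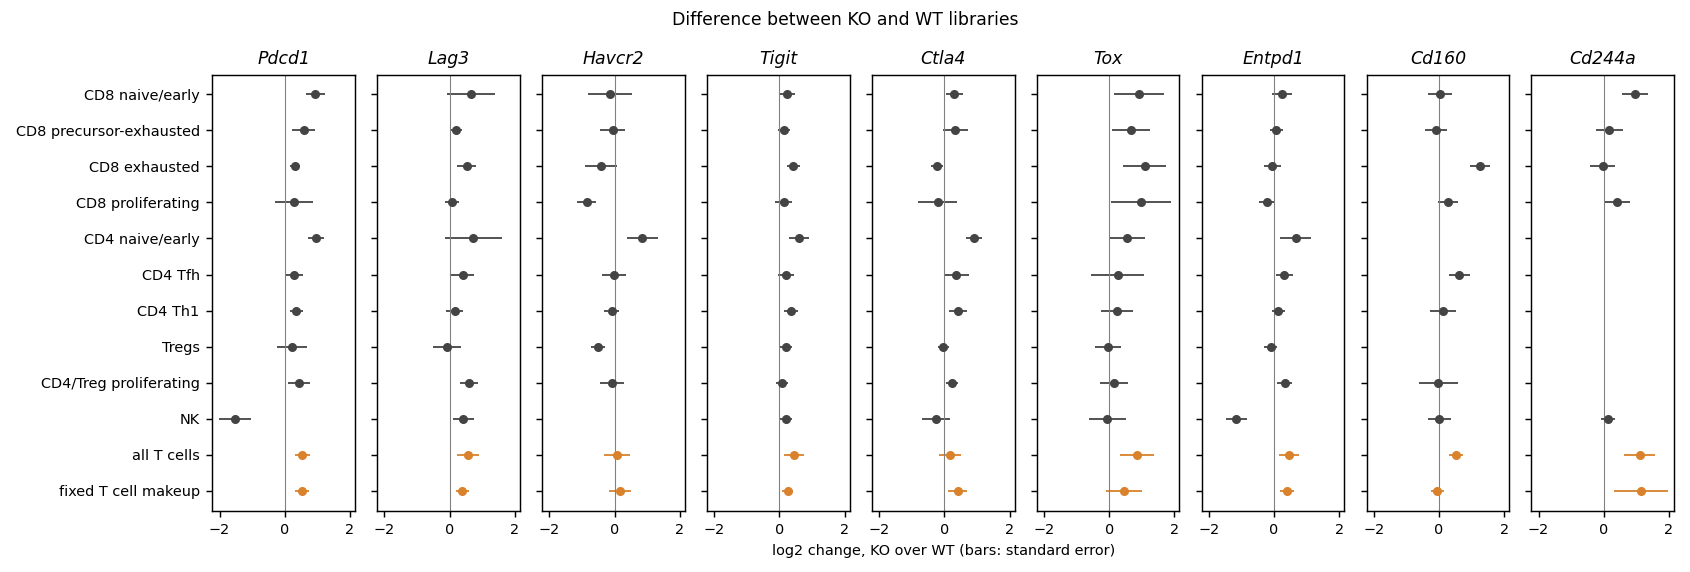
Log2 difference of KO from WT (x axis, points, with bars of 1 standard error) for each gene (panels) in each tested subtype, in all T cells summed and at a fixed makeup (y axis). No value passes the adjusted threshold; in all T cells summed the 9 values lie between 0.076 (Havcr2) and 1.10 (Cd244a).

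Summed over all T cells of a mouse, with NK cells left out, 9 of 9 members had positive log2 differences (52.1% of 13043 genes), with a median of 0.52 against 0.012 for all genes. None was called, nor was any other gene (0% called by edgeR), while 6.56% of all genes and 2 members had an unadjusted p under 0.05. DESeq2 called 35 genes and no member. No member separated the groups, where 7.28% of all genes did. The T cells of the mice differed in makeup, with CD8 cells making up 52.2, 63.0, 78.3 and 63.6% in KO replicates 1 to 4 and 40.5, 33.4 and 59.2% in WT replicates 1 to 3. Gamma-delta cells were 25.7% of the T cells of WT replicate 1 and 0.29 to 4.4% of those of the other 6 mice. Naive/early cells, low in Pdcd1, Lag3, Havcr2 and Tox, also differed. Of 613, 2663, 3792 and 3549 T cells in KO replicates 1 to 4, 87, 311, 260 and 377 were naive/early CD8 cells. Naive/early CD4 cells numbered 29, 164, 144 and 166 there. In WT replicates 1 to 3, 82, 286 and 99 of 311, 1504 and 1260 T cells were naive/early CD8 and 63, 158 and 62 naive/early CD4 cells. A sum therefore also moves with the proportions of subtypes. WT replicate 1, with the fewest T cells, weighed most, and without it 7 of 9 members were positive with a median of 0.21.

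Pdcd1 in all T cells was 832, 546, 724 and 783 in KO replicates 1 to 4, and 431, 418 and 673 in WT replicates 1 to 3. WT replicate 3 reached into the KO range. Its log2 difference was 0.54 (SE 0.23), and 0.85 without WT replicate 3. Cd160 was 44.2, 48.5, 72.0 and 73.5 in KO replicates 1 to 4, and 45.5, 47.7 and 35.8 in WT replicates 1 to 3, with 0.52 (SE 0.20). Cd244a had the largest log2 difference of the 9 at 1.10 (SE 0.48), from 22.2, 31.6, 34.9 and 32.7 in KO replicates 1 to 4, and 4.13, 9.32 and 25.8 in WT replicates 1 to 3. WT replicates 1 and 2 were low in Cd244a, and WT replicate 3 lay inside the KO range. The log2 difference of Cd244a was 0.78 without WT replicate 1 and 2.10 without WT replicate 3. Tox was 114, 60.3, 296 and 183 in KO replicates 1 to 4, and 82.1, 124 and 71.1 in WT replicates 1 to 3. KO replicate 3 was far above and KO replicate 2 below the others. The log2 difference of Tox was 0.86 (SE 0.52), and 0.40 without KO replicate 3. The adjusted p values of all 9 were 0.721 or above in edgeR's test.

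The others gave log2 differences of 0.57 (SE 0.34) for Lag3, 0.45 (SE 0.31) for Tigit, 0.45 (SE 0.32) for Entpd1, 0.18 (SE 0.34) for Ctla4 and 0.076 (SE 0.41) for Havcr2. Lag3 was 377, 283, 403 and 336 in KO replicates 1 to 4, and 108, 332 and 279 in WT replicates 1 to 3. WT replicate 1 was far below the other 6 libraries. The 5 T cell markers also summed lowest in that mouse, to 2581 CPM against 3482 to 4282 in the other 6. Without that mouse the log2 difference was 0.21 for Lag3, 0.12 for Tigit and 0.13 for Entpd1. It was 0.84 for Lag3 and 0.74 for Tigit without WT replicate 2, and 0.84 for Entpd1 without WT replicate 3. With gamma-delta cells left out, a choice made after seeing the data, WT replicate 1 held 132 of Lag3, 233 of Tigit and 31.3 of Entpd1, still the lowest of the 7 libraries in each. The log2 differences were then 0.51 for Lag3, 0.39 for Tigit, 0.40 for Entpd1 and 0.67 for Pdcd1, and 9 of 9 members were positive with a median of 0.42 and 0 called (edgeR). Tigit was 456, 394, 604 and 535 in KO replicates 1 to 4, and 192, 523 and 402 in WT replicates 1 to 3. KO replicate 3 was its highest library, as in 9 of 10 subtypes. Ctla4 ran from 256 to 719, Entpd1 from 26.6 to 90.9 and Havcr2 from 53.1 to 179 over the 7 libraries.

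At a fixed makeup, in which 7 subtypes were given the same weights in every mouse, the fit was limma on log2(standardised CPM + 1). The makeup leaves out exhausted CD8, Th1 and Treg cells, so both the cells and the fit differ from those of the sum over all T cells. 8 of 9 members had positive log2 differences (49.3% of 13457 genes), with a median of 0.40 against -0.0037 for all genes, 0 were called (0% of all genes), and 1 had an unadjusted p under 0.05 (5.91%). The log2 difference of Pdcd1 was 0.52 (SE 0.21), with an adjusted p of 0.843 by limma, from 732, 439, 602 and 611 in KO replicates 1 to 4, and 313, 386 and 564 in WT replicates 1 to 3. The log2 difference of Cd160 was -0.046 (SE 0.19) at the fixed makeup, where limma on the sum over all T cells gave 0.44 (and 0.52 for Pdcd1). Lag3 was 0.39, Tigit 0.26, Ctla4 0.41, Entpd1 0.40 and Havcr2 0.18. Tox was 0.45, and 0.10 without KO replicate 3. Cd244a was 1.13 (SE 0.82), and 0.11 without WT replicate 1. Without WT replicate 1 the median of the members was 0.13, with 7 of 9 positive, and Pdcd1 was 0.33, Lag3 0.14, Tigit 0.13, Ctla4 0.23 and Entpd1 0.069. Ctla4 was 0.20 without KO replicate 1 and 0.64 without WT replicate 3. Tox was 0.81 without KO replicate 2, 0.70 without WT replicate 2 and 0.19 without WT replicate 3. Tigit was 0.15 without KO replicate 3.

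Whether the difference of genotypes itself differed between CD8 and CD4 cells was tested as an interaction within mice. All CD8 and all CD4 subtypes of a mouse were summed, so the interaction also moves with the proportions of subtypes within each lineage. Naive/early CD8 cells numbered 82 and 286 in WT replicates 1 and 2, against 21 and 159 precursor-exhausted cells. In every other mouse precursor-exhausted cells were the more numerous. The part of these proportions was not tested. None of 12244 genes was called (0%, edgeR), and 5.73% of genes and 2 members had an unadjusted p under 0.05. These were Tox, with an interaction of 0.53 (SE 0.20) on the log2 scale and an adjusted p of 0.832, and Cd244a, with -1.79 (SE 0.55) and 0.748 (edgeR). Tox was 0.32 without WT replicate 2, and Cd244a was -1.11 without WT replicate 2 and -3.32 without WT replicate 3. In CD4 cells Cd244a was at or near background, as given above. For the other 7 the interaction lay between -0.24 and 0.40, and single mice moved it widely. Pdcd1 ran from 0.18 without WT replicate 1 to 0.80 without WT replicate 3, Tigit from -0.63 without WT replicate 2 to -0.028 without WT replicate 1, and Entpd1 from -0.60 without WT replicate 2 to -0.035 without WT replicate 3.

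Tox differed between libraries in a like way over the subtypes. KO replicate 3 had the highest Tox in 8 of the 10 subtypes in which it had a value, and KO replicate 2 the lowest in 7 of 10. In precursor-exhausted cells Tox was 146, 68.8, 337 and 233 in KO replicates 1 to 4, and 138, 169 and 80.8 in WT replicates 1 to 3. Among the 4 males, all T cells held 296 and 183 in KO replicates 3 and 4 against 82.1 and 124 in WT replicates 1 and 2. Among the 3 females they held 114 and 60.3 in KO against 71.1 in WT. Both male KO values lay above both male WT values, while the female WT value lay between the female KO values, and this difference between the sexes was not tested. Ctla4 was highest in KO replicate 1 in 7 of 11 subtypes.

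Transcripts of myeloid cells were present at a low level in T cells. The 8 markers, all detected, summed to 750.2, 1448, 535 and 975 CPM in the T cells of KO replicates 1 to 4 and to 1286, 1237 and 1300.1 in WT replicates 1 to 3, against a mean of 22752 in monocytes and macrophages. Leaving out T cells with UMIs of 3 or more of 4 myeloid genes, a choice made after seeing the data, left 9 of 9 members positive with a median of 0.51 and 0 called by edgeR.

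A further 52 genes of the same pathways were followed as a list, namely 14 costimulatory or competing receptors such as Cd28 and Cd226, 8 phosphatases and adaptors, 18 exhaustion factors such as Nr4a1 and Batf, 4 genes of the adenosine pathway and 8 ligands. In all T cells 51 were tested and 0 passed the adjusted threshold, with 4 above and 2 below at an unadjusted p under 0.05 (edgeR), where 6.56% of all genes had one. Their median log2 difference was 0.045 against 0.012 for all genes and 0.52 for the 9 members. At the fixed makeup the median was 0.034, with 0 of 51 called by limma and 3 at an unadjusted p under 0.05 (5.91% of all genes). In the 10 tested subtypes 39 to 50 of the 52 were tested and none was called, with at most 6 in a subtype at an unadjusted p under 0.05. Those 6 were of 46 in exhausted CD8 cells, 5 above and 1 below, where 4.86% of all genes had one. For CD8 against CD4 cells 51 were tested and 0 called. At an unadjusted p under 0.05, 0 were above and 7 below (edgeR), where 5.73% of all genes had one. The interaction was positive for 14 of the 51 (47.9% of all genes), with a median of -0.15 against -0.013 for all genes. The genes share mice, so these counts are no test of the list.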

How the data were processed

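Expected counts (UMIs per gene and cell, some not whole numbers: 7.51% of the non-zero values) were deposited by the authors with a table of cell annotations. The submitters' processing notes name FastQC 0.11.5, STARsolo, STAR 2.7.10a and mm10. Counting strand, cell filters and doublet handling are not given in the sources used here. UMIs were summed per library and annotation and rounded, using libraries with at least 20 cells. Genotypes were compared over mice with edgeR 4.0.16 (TMM, filterByExpr, quasi-likelihood, Benjamini-Hochberg over all genes; adjusted p threshold 0.05) and, at a fixed makeup of 7 subtypes with at least 10 cells in every library, with limma 3.58.1 on log2 of standardised CPM plus 1. DESeq2 1.42.0, run in R 4.3.3, was an alternative. Others were RLE scaling, no low-count filter, a replicate block, a sex term, other depths, pseudocounts and weights, and each mouse left out. Shares used cells thinned to 3300 UMIs. The members and lists were chosen with earlier results of these data known. All members got levels and genotype values; within a subtype, full statistics went to members past the adjusted threshold, or with an unadjusted p under 0.05 and groups that did not overlap. On simulated data for the sums over all T cells, edgeR recovered 70% of 2-fold and 100% of 4-fold changes; for precursor-exhausted cells, 56% and 100%; for CD8 against CD4 cells, 25% and 96%. For limma at the fixed makeup the shares were 91% and 100%. The simulated counts had the same spread between mice for every gene and no differences in makeup, and only genes above 20 CPM were changed. These shares therefore do not give the chance of finding a change in the members. Depth per cell is given as a median, and the limit for a count of 0 covers counting error only.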

Additional observations from a re-analysis of the deposited data

Results flagged for a closer look

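In groups of 4 KO libraries, 8 of 99 groups (90 of a gene in a subtype and 9 of a gene in all T cells summed) had a library far from the others by Dixon's criterion, which chance meets in about 1 of 20 groups. Groups of 3 WT libraries were not examined. KO replicate 3 was the high library in 4 of these. It held 432 CPM of Pdcd1 in naive/early CD4 cells, where the other KO libraries held 207 to 230. For Tox it held 165 in naive/early CD8 cells (others 38.3 to 47.6) and 129 in naive/early CD4 cells (others 32.5 to 47.1). For Entpd1 in NK cells it held 39.3 (others 14.7 to 18.8).

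KO replicate 2 had the highest Havcr2 in NK cells, at 15.1 (others 5.47 to 6.54). KO replicate 4 had the highest Cd244a in exhausted CD8 cells, at 49.9 (others at most 38.0). KO replicate 1 was the low library for Cd244a in precursor-exhausted cells, at 29.5 (others at least 46.5), and for Entpd1 in naive/early CD4 cells, at 0 (others 44.0 to 52.3). The last value comes from 29 cells.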

How the results depend on the processing

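Member calls within subtypes, 0 as reported, stayed at 0 without any 1 mouse (0 to 0), were 4 with no low-count filter (Pdcd1 in naive/early CD8, naive/early CD4 and NK cells, and Ctla4 in naive/early CD4 cells) and 1 with a replicate block (Pdcd1 in naive/early CD8 cells). Gene calls within subtypes, 15 as reported, were 26 with DESeq2, 289 with no filter, 190 with the replicate block and 14 to 57 without 1 mouse. In all T cells, 0 genes became 35 with DESeq2, 3 with no filter, 3 with the replicate block and 0 to 2 without 1 mouse. At the fixed makeup, 0 became 5 with the replicate block and 0 to 5 without 1 mouse. In CD8 against CD4, 0 became 53 with no filter, among them Tox, and 0 to 11 without 1 mouse. With the replicate block 49 of the 82 log2 differences of members within subtypes were positive, against 59 as reported, with 3 of 8 in Tfh (median -0.016, against 7 of 8 and 0.31) and 3 of 8 in proliferating CD4/Treg cells (median -0.055, against 6 of 8 and 0.18). Same-numbered mice did not deviate together in the sums over all T cells (correlations 0.07, 0.02 and −0.08 over 13043 genes). Differently numbered mice gave -0.20 to 0.11. These sums also differ in makeup, so whether the number pairs the mice cannot be told from them. No paired fit was made for CD8 against CD4, where each mouse already has a term. At the fixed makeup, leaving out WT replicate 1 and using all subtypes, chosen after seeing the data, gave Havcr2 −0.13 and Cd160 0.026, and a sex term gave Cd160 0.019. Without 1 mouse the log2 difference changed sign for Havcr2 (-0.26 to 0.62) and Ctla4 (-0.12 to 0.36) in all T cells, and at the fixed makeup for Havcr2 (-0.098 to 0.52) and Cd160 (-0.22 to 0.18). In proliferating CD8 cells it did so for Havcr2 (-1.16 to 0.056). In CD8 against CD4 it did so for Lag3 (-0.32 to 0.56), Havcr2 (-0.46 to 0.39), Ctla4 (-0.32 to 0.41) and Cd160 (-0.39 to 0.86). The cause was not tested. Of 99 mean shares, 48 moved by more than 1 SD without thinning, and at 6600 UMIs 61 moved and 11 did not. Minimums of 10 and 50 cells gave values for some subtypes only. Naive/early CD4 cells were the shallowest T cell subtype, with a median of 2610 UMIs, and 127 KO and 90 WT cells of it reached 3300.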

Other observations

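Several members were abundant outside T and NK cells. Lag3 was at 277 ± 67.7 CPM in annotated microglia (SD, n = 6 libraries), found in 58.6% of cells at 3300 UMIs, and at 327 ± 118 in plasmacytoid dendritic cells (60.3% of cells), which is within the range of its T cell subtypes. In microglia Lag3 was 322, 235 and 183 in KO replicates 1, 2 and 4, and 314, 365 and 241 in WT replicates 1 to 3, with overlapping groups. Havcr2 was at 270.3 in microglia, 219 in cDC1, 173 in monocyte-derived dendritic cells and 133 in monocytes and macrophages, against 244 in Tfh cells. Entpd1 was at 221 in microglia and 108 in monocytes and macrophages, against 117 in Tregs.

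Pdcd1 was also found in cDC2, conventional dendritic cells that present antigen to CD4 cells, at 125 ± 44.7 (n = 7) and in 25.1% of cells, against 1.98% of cDC1. The cDC2 values were 188, 117, 87.7 and 116 in KO replicates 1 to 4, and 187, 82.2 and 98.1 in WT replicates 1 to 3. T cell markers summed in cDC2 came to 239.6 in KO replicate 1 and 5.20 to 45.7 in the other 6 libraries, against a mean of 3672 in T cells. Ctla4 was at 117 ± 91.7 in B cells. Over all sorted cells together, Pdcd1 had a mean of 347 in KO and 108 in WT libraries. T cells were 43.5 to 79.9% of the KO and 10.6 to 33.8% of the WT cells, and within T cells the groups overlapped in Pdcd1, from 546 to 832 in KO and 418 to 673 in WT.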
